A study of Mus musculus with 45 samples.

Results

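The metabotropic glutamate receptors described here are the 7 genes Grm2, Grm3, Grm4, Grm5, Grm6, Grm7 and Grm8, taken by symbol from the 54532 genes of the count table. They were chosen with earlier results of these data known. RNA was sequenced from primary hippocampal cultures of newborn (P0) C57BL/6N mice, grown with AraC from day in vitro (DIV) 3 to limit dividing cells and treated on DIV 10 or 11 according to the labels (DIV 11 in the sequencing methods of the study). The 9 conditions were an untreated control; 0.5, 1 or 2 h of bicuculline (Bic, 50 µM), which blocks GABA type A receptors and thereby drives AP firing; 2 conditions of a short protocol (SP) and 3 of a long protocol (LP). In the SP, Bic ran for 0.5 h alone and for a further 0.5 h together with tetrodotoxin (TTX, 1 µM), a blocker of AP firing, or with both TTX and NMDA (30 µM). In the LP, Bic ran alone for 1 h and then for another 1 h with added TTX, TTX plus NMDA, or TBOA (50 µM), an inhibitor of glutamate uptake. Each condition had 5 libraries, 1 from each of the culture preparations numbered 1, 3, 6, 7 and 8, so that each preparation gave a library to every condition.

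Metabotropic glutamate receptors are G protein-coupled receptors that respond to the transmitter glutamate without forming an ion channel. Grm5 encodes a group I receptor, mGlu5, which sits mainly around the postsynaptic density and acts through Gq proteins, phospholipase C and the release of calcium from internal stores, held in place by Homer scaffolds. Grm2 and Grm3 encode the group II receptors, and Grm4, Grm6, Grm7 and Grm8 the group III receptors; both groups act through Gi/o proteins, lower the formation of cyclic AMP and, at presynaptic terminals, restrain transmitter release. NMDA receptors, the target of the NMDA added here, are ion channels for the same transmitter. Grm6 is best known from ON bipolar cells of the retina, and Grm3 is made by astrocytes as well as by neurons.

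All values are read counts per gene, scaled to counts per 1000000 reads (CPM) with TMM factors, which adjust for differences in library composition. The libraries held 11316580 to 81129276 counts on genes (median 26239614). Each comparison was tested on its own 10 libraries with edgeR's quasi-likelihood test over all genes with at least 1 read, without a term for the preparation (the unpaired fit), and a gene is named as called at a Benjamini-Hochberg adjusted p-value under 0.05. Because every preparation was present in every condition, a second fit had the preparation as a block over genes that passed a low-count filter (the paired fit), and its value is given where the call changed. The treatments were visible in activity-regulated genes, with Fos at a mean of 36.4 CPM in the control and 1539 CPM after 2 h Bic, and Npas4 at 47.2 and 2224 CPM. Markers of neurons were abundant in every library, with 5 of 5 at a mean of 1 CPM or more and a summed level of 4546 to 5856 CPM. Astrocyte markers were present too, 6 of 6 at 1 CPM or more, while 2 of 6 microglial markers reached 1 CPM. So did 6 of 7 markers of the oligodendrocyte lineage and 2 of 4 endothelial or fibroblast markers.

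Grm5 was the most highly expressed of the receptors, Grm8 was low and Grm6 was close to absent. Over the 45 libraries, 549818 reads fell on Grm5, 82330 on Grm7, 51500 on Grm2, 41281 on Grm4, 21866 on Grm3 and 9143 on Grm8. Grm6 had 26 reads in all, in 19 of the 45 libraries and never more than 2 in one, which is below the 3 reads that a count of 0 allows in a single library, and no fold change is given for it. That floor corresponded to 0.0370 to 0.265 CPM, depending on the depth of the library, and covers counting error only. At this depth a small amount of Grm6 RNA was not detectable.

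Expressed per kilobase of exon, so that genes of different length can be compared, the mean level over all libraries was 38 CPM per kb for Grm5, 9.99 for Grm7, 7.57 for Grm2, 5.07 for Grm3, 4.96 for Grm4 and 0.667 for Grm8. Among the 13592 genes with a mean of at least 1 CPM, Grm5 lay at percentile 97.0 of the levels in CPM, Grm7 at 69.6, Grm2 at 58.2, Grm4 at 52.8, Grm3 at 38 and Grm8 at 23.5. In the control, the order per kilobase was Grm5 (39.1 CPM per kb), Grm7 (11.7), Grm2 (7.08), Grm4 (4.77), Grm3 (4.21) and Grm8 (0.653), and of these neighbours only the ranges of Grm4 and Grm3 overlapped. Grm5 lay above every other receptor, and Grm8 below, without overlap in all 9 conditions. Grm7 and Grm2 overlapped after 2 h Bic, in SP TTX/NMDA, in LP TBOA and in LP TTX/NMDA, where the mean of Grm2 (8.07 CPM per kb) lay above that of Grm7 (6.84 CPM per kb).

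**Figure D1:**
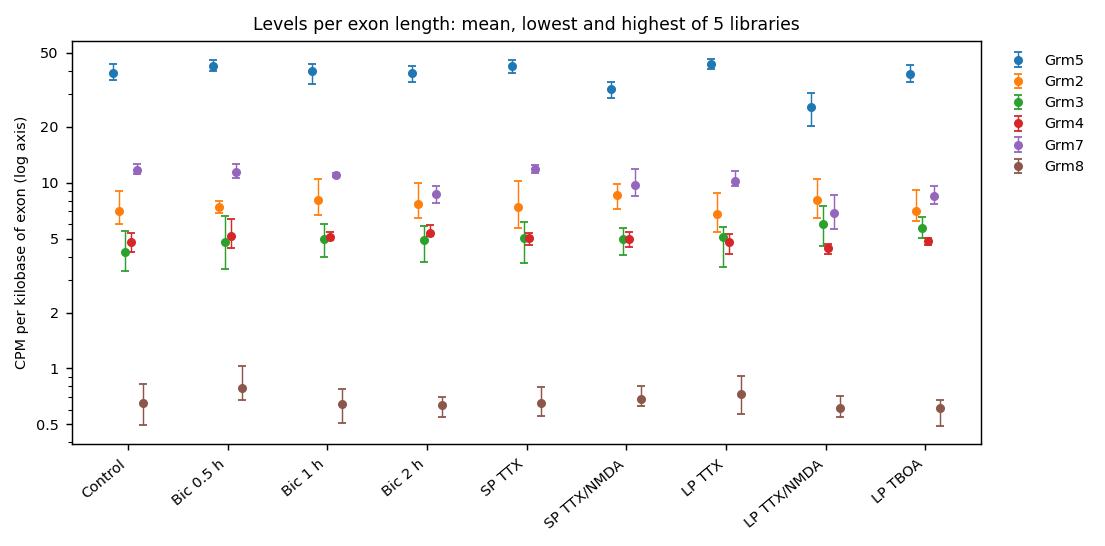
Mean level of 6 receptors in each of the 9 conditions, in CPM per kilobase of exon on a logarithmic axis, with bars from the lowest to the highest of 5 libraries. Grm5 lies above the other receptors and Grm8 below them in every condition, and in LP TTX/NMDA the bars of Grm7 (mean 6.84 CPM per kb) and Grm2 (8.07) overlap.

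Grm5 (ENSMUSG00000049583; GRCm38, chr7:87584168-88134907, plus strand, an annotated span of 550740 bases) was called at no time of the Bic series. The control libraries of preparations 1, 3, 6, 7 and 8 held 393, 366, 445, 407 and 393 CPM, and those of 2 h Bic held 410, 433, 390, 404 and 355.5 CPM. These ranges overlapped, and the log2 fold change was -0.02 (SE 0.08, edgeR adjusted p = 0.92). After 0.5 h and 1 h of Bic, the log2 fold changes were 0.12 (SE 0.08) and 0.03 (SE 0.08), with edgeR adjusted p-values of 0.84 and 0.94.

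Grm7 (ENSMUSG00000056755; GRCm38, chr6:110645581-111567230, plus strand, a span of 921650 bases) encodes the receptor with the lowest affinity for glutamate, found in the active zone of presynaptic terminals. An antisense gene, Gm20387, overlaps its exons by 130 bases; it had 2920 reads in all, and counting by strand keeps its reads apart from those of Grm7. Grm7 was lower after 2 h Bic. The control libraries held 66.9, 65.4, 70.4, 68.1 and 73.9 CPM, in the order of preparations above, and the 2 h Bic libraries 49.3, 49.3, 55.5, 45.6 and 56.6 CPM. No 2 h library reached the lowest control, and the level was lower in 5 of 5 preparations, where it fell by 25.7% ± 4.48 (SD, n = 5). The log2 fold change was -0.44 (SE 0.08, edgeR adjusted p = 9.4e-05). After 1 h Bic, the libraries lay between 63.1 and 66.5 CPM, overlapping the control, and the log2 fold change was -0.10 (SE 0.08, adjusted p = 0.66); after 0.5 h it was -0.04 (SE 0.08, adjusted p = 0.97).

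Across the AP firing series, no receptor was called after 0.5 h, when 0.289% of the tested genes were called (0.541% in the paired fit, no receptor), nor after 1 h, at 1.16% of genes (4.07% in the paired fit, no receptor). At each of these times, 0 receptors had an unadjusted p under 0.05 in the unpaired fit and 2 in the paired fit (Grm3 at both, with Grm8 after 0.5 h and Grm2 after 1 h), and DESeq2 called 0. After 2 h, 1 of the 6 detected receptors, Grm7, was called, at 9.02% of genes. The paired fit called 2, at 29.3% of genes, the other being Grm4 with a log2 fold change of 0.18 (SE 0.06, adjusted p = 0.049), against 0.17 (SE 0.08, adjusted p = 0.27) in the unpaired fit. Grm4 had a mean of 28.5 CPM in the control and 32.2 ± 1.97 CPM (SD, n = 5) after 2 h Bic. Among the group II receptors, Grm2 was higher than the control in 5 of 5 preparations after 2 h Bic, by 8.43% ± 2.15 (SD, n = 5), with a log2 fold change of 0.11 in the paired fit (SE 0.05, adjusted p = 0.13). It had a log2 fold change of 0.19 after 1 h (SE 0.11, edgeR adjusted p = 0.66). Grm3 had log2 fold changes of 0.19, 0.23 and 0.20 after 0.5, 1 and 2 h, none of them called. Grm8 had its highest mean of the 9 conditions, 7.81 CPM, after 0.5 h Bic against 6.46 CPM in the control. It was higher in 5 of 5 preparations, by 21.7% ± 10.8 (SD, n = 5), but the ranges overlapped and the log2 fold change of 0.28 (SE 0.14) was not called (edgeR adjusted p = 0.84). The Bic conditions share the control libraries, so their values are not independent of one another. After 2 h Bic, 1 of 4 markers of glutamatergic neurons was called higher and 1 lower. Of the GABAergic markers, 1 of 3 was called higher, and 0 of 6 astrocyte and 0 of 5 neuronal markers were called. The paired fit called 3 of 3 GABAergic and 2 of 6 astrocyte markers higher and 1 of 5 neuronal markers lower. The part of these shifts in the values of the receptors was not tested.

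**Figure D2:**
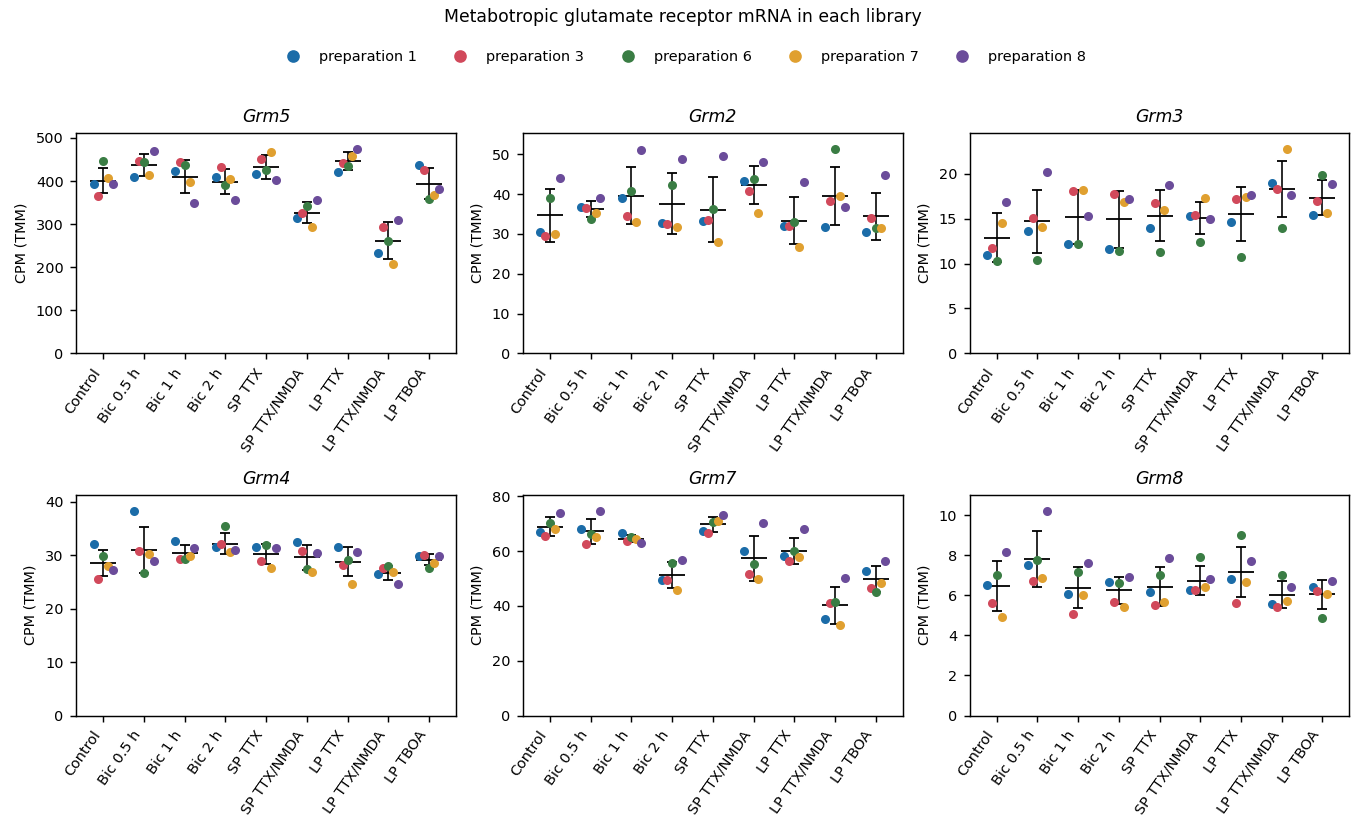
CPM of 6 receptors in the 45 libraries, by condition, with a point for each library, coloured by culture preparation, and bars for the condition mean and 1 SD; each panel has its own vertical axis, which starts at 0. Grm5 is lowest in LP TTX/NMDA (206 to 311 CPM, against 422 to 474 CPM in LP TTX), and Grm7 is lower after 2 h Bic (45.6 to 56.6 CPM) than in the control (65.4 to 73.9 CPM).

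For Grm7 and Grm3, whose levels are followed through the conditions, the 250 bases upstream of a RefSeq transcription start are shown (RefSeq, GRCm38.p6), written 5′ to 3′ on the gene's own strand with each CpG dinucleotide in capitals. The Grm7 window is chr6:110645262-110645511 (plus strand), with 8 CpG and 62.0% G or C, and the Grm3 window is chr5:9725353-9725602 (minus strand), with 8 CpG and 62.4% G or C.
Grm7: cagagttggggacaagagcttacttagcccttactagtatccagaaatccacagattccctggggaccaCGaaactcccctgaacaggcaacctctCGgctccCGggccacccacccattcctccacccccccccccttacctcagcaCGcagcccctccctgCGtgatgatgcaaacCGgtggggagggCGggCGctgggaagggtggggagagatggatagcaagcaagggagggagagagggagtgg
Grm3: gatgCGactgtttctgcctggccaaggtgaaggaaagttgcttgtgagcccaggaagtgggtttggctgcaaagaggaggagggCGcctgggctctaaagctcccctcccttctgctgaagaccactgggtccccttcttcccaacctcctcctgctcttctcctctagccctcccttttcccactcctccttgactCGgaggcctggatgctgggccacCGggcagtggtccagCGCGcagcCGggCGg
The lower and upper quartiles over all RefSeq promoter windows of this length were 2 and 16 CpG (median 6), so both windows were unremarkable in this count. Neither window holds, on either strand, the cyclic AMP response element TGACGTCA (in 1.55% of 32851 promoters), its part TGACG (17.8%, which includes the former), the AP-1 motif TGANTCA (6.75%), the Egr motif GCGTGGGCG (0.536%) or the E-box CACGTG (6.02%). Promoter entries existed for 5 of the 7 receptors, and those of Grm2 and Grm6 also lacked these letters, whereas the Grm8 windows held TGACG and TGANTCA. A match or its absence describes these letters in this window and nothing about binding.

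The passive effect compares TTX with Bic that ran on for the same time and asks what the loss of AP firing alone changed. In the SP, no receptor was called in either fit, at 0.268% of genes (0.489% in the paired fit). The unadjusted p was under 0.05 for 0 receptors in the unpaired fit and for 1, Grm2, in the paired fit, and DESeq2 called 0. Grm7 was nevertheless higher in SP TTX, with 67.3, 66.8, 70.5, 70.9 and 73.2 CPM, than in any library of 1 h Bic, and its log2 fold change of 0.11 (SE 0.07) had an edgeR adjusted p of 0.88. Grm5 had a log2 fold change of 0.07 (SE 0.07, adjusted p = 0.88). All 6 detected receptors had log2 fold changes between -0.13 (Grm2) and 0.11 (Grm7) in this comparison.

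In the LP, 0 receptors were called by the unpaired fit, at 4.65% of genes, and 4 by the paired fit, at 32% of genes. At an unadjusted p under 0.05 the unpaired fit held 3 receptors (Grm4, Grm5 and Grm7), and DESeq2 called 1. Grm7, lower after 2 h Bic, was less so when firing had been blocked for the last 1 h, and went from a mean of 51.3 ± 4.64 CPM (SD, n = 5) in 2 h Bic to 58.3, 56.3, 59.9, 57.8 and 68.1 CPM in LP TTX. It was higher in 5 of 5 preparations, by 17.5% ± 7.02 (SD, n = 5), with overlapping ranges, a log2 fold change of 0.22 (SE 0.07, edgeR adjusted p = 0.067) and, in the paired fit, 0.21 (SE 0.04, adjusted p = 0.0012). Grm5 was also higher in 5 of 5 preparations, by 12.6% ± 12.6 (SD, n = 5), at 422, 442, 434, 458 and 474 CPM in LP TTX. Its log2 fold change was 0.16 (SE 0.06, adjusted p = 0.17) in the unpaired and 0.15 (SE 0.05, adjusted p = 0.021) in the paired fit. Grm2 and Grm4 went the other way and were lower in 5 of 5 preparations, with log2 fold changes of -0.19 (SE 0.11, adjusted p = 0.42) and -0.17 (SE 0.07, adjusted p = 0.24), and in the paired fit of -0.19 (SE 0.05, adjusted p = 0.010) and -0.19 (SE 0.05, adjusted p = 0.013).

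The active effect compares TTX/NMDA with TTX, at equal duration and with firing blocked in both, and asks what NMDA added. Grm5 and Grm7 were lower with NMDA in both protocols. In the SP, Grm5 had 416, 452, 425, 468 and 401 CPM with TTX and 315, 325, 342, 293 and 357 CPM with TTX/NMDA. The ranges did not overlap, the level fell in 5 of 5 preparations and decreased by 24.1% ± 9.77 (SD, n = 5), and the log2 fold change was -0.41 (SE 0.07, edgeR adjusted p = 0.00012). Grm7 had 59.9, 51.5, 55.3, 50.0 and 70.1 CPM with TTX/NMDA in the SP, lower than the TTX library of the same preparation in 5 of 5. Preparation 8 lay within the TTX range, and the log2 fold change was -0.29 (SE 0.08, edgeR adjusted p = 0.024), a call that was lost without preparation 3 or without preparation 7 (adjusted p up to 0.109).

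These were the 2 receptors called in the SP, at 4.28% of genes. The paired fit called 3, at 16.2% of genes, adding Grm2 with a log2 fold change of 0.25 (SE 0.06, adjusted p = 0.026), against 0.21 (SE 0.10, adjusted p = 0.35) in the unpaired fit. Grm2 (GRCm38, chr9:106643095-106656082, minus strand, a span of 12988 bases), known from hippocampal mossy fibre terminals, held 33.3, 33.4, 36.1, 27.9 and 49.7 CPM with TTX and 43.2, 40.9, 43.8, 35.2 and 48.1 CPM with TTX/NMDA, higher in 4 of 5 preparations. The other receptors gave log2 fold changes of -0.04 (Grm4), -0.03 (Grm3) and 0.04 (Grm8) in the SP, none of them called.

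In the LP, the same comparison gave log2 fold changes further from 0 for Grm5 and Grm7, and the test of that difference is given after the total effect. LP TTX/NMDA libraries held 232, 294, 262, 206 and 311 CPM, and the highest of them lay below the lowest LP TTX library, 422 CPM. The level fell in 5 of 5 preparations and decreased by 41.6% ± 8.80 (SD, n = 5), with a log2 fold change of -0.78 (SE 0.08, edgeR adjusted p = 1.6e-08). Grm7 held 35.2, 41.2, 41.5, 33.1 and 50.4 CPM in LP TTX/NMDA, again without overlap with LP TTX. It fell in 5 of 5 preparations and decreased by 33.2% ± 7.59 (SD, n = 5), with a log2 fold change of -0.59 (SE 0.09, edgeR adjusted p = 6.9e-06). These means, 261 ± 43 CPM for Grm5 and 40.3 ± 6.73 CPM for Grm7 (SD, n = 5), were the lowest of the 9 conditions for both genes.

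**Figure D3:**
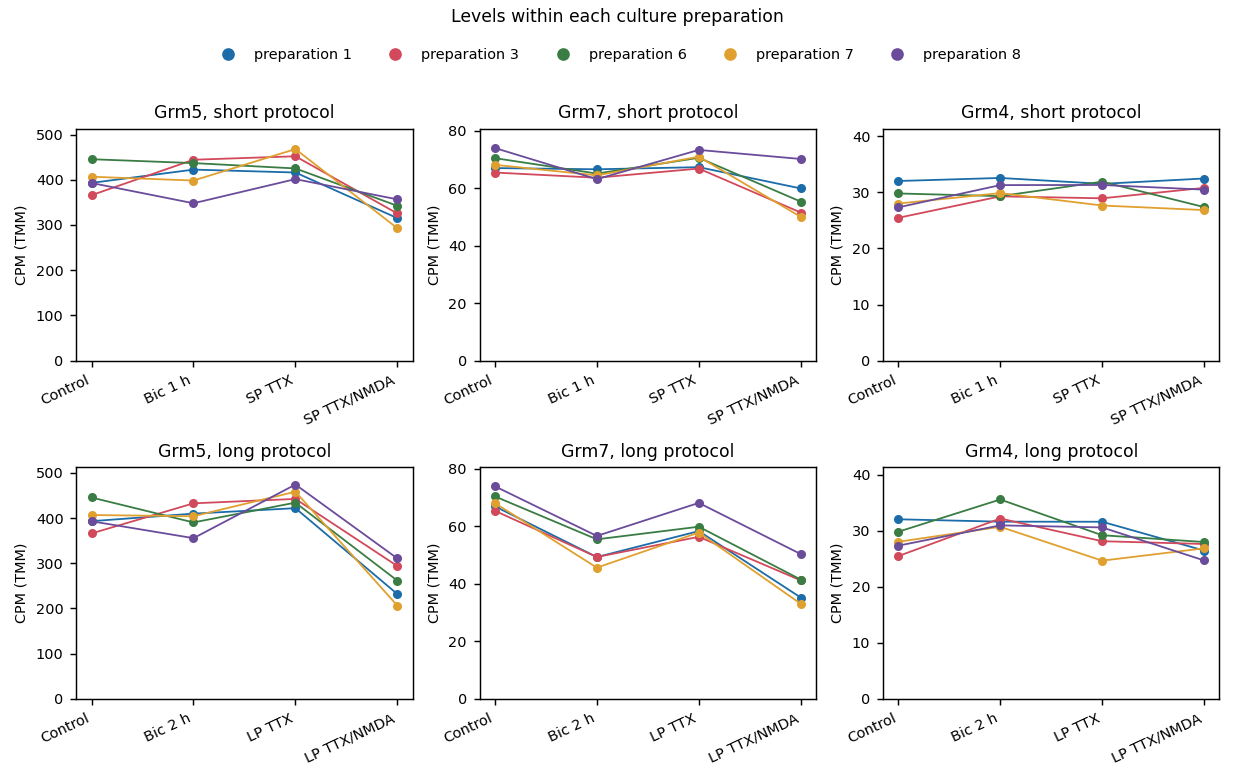
CPM of Grm5, Grm7 and Grm4 in the control, Bic, TTX and TTX/NMDA libraries of the SP (top) and LP (bottom), with a line joining the libraries of the same culture preparation and vertical axes that start at 0. Every line of Grm5 and Grm7 falls from TTX to TTX/NMDA, for Grm5 in the LP from 422 to 474 CPM to 206 to 311 CPM.

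The LP active effect called 2 of the 6 detected receptors, at 23.3% of genes. The paired fit called 5 of 6, at 62.1% of genes, so that most receptors shared a call with most genes of that fit. The 3 it added were Grm8, with a log2 fold change of -0.21 (SE 0.08, adjusted p = 0.028), Grm3 with 0.25 (SE 0.07, adjusted p = 0.0053) and Grm2 with 0.25 (SE 0.10, adjusted p = 0.030). In the unpaired fit, these were -0.26 (SE 0.13, adjusted p = 0.16), 0.23 (SE 0.12, adjusted p = 0.20) and 0.23 (SE 0.11, adjusted p = 0.14). Grm3 (GRCm38, chr5:9485541-9725170, minus strand) was higher in 5 of 5 preparations, going from 14.6, 17.2, 10.7, 17.5 and 17.6 CPM with TTX to 18.9, 18.3, 14, 22.7 and 17.7 CPM with TTX/NMDA; preparation 8 barely differed. Grm8 (GRCm38, chr6:27275119-28135178, minus strand, a span of 860060 bases) encodes a presynaptic receptor of higher affinity than mGlu7. It held 6.83, 5.64, 9.01, 6.65 and 7.74 CPM with TTX and 5.57, 5.41, 7.03, 5.72 and 6.42 CPM with TTX/NMDA, lower within each preparation but overlapping between conditions. Grm2 was higher in 3 of 5 preparations only, and without preparation 8 the unpaired fit called Grm2 (0.37) and Grm3 (0.29) as well, 4 receptors in all. Grm4, at a log2 fold change of -0.12 (SE 0.08, adjusted p = 0.33), was called in neither fit. The median log2 fold change of the 6 receptors was -0.19, and that of all tested genes 0.11. Over the 13601 genes with at least 1 CPM before TMM scaling, the median was -0.01 and 46.9% were called by the unpaired fit.

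Several cell type markers moved in the same comparison. Of the astrocyte markers, 6 of 6 were called higher in LP TTX/NMDA than in LP TTX (log2 fold changes 0.80 to 0.90), and their summed level was 688 to 1429 CPM against 389 to 805 CPM. Of the markers of glutamatergic neurons, 4 of 4 were called lower (-1.13 to -0.59), with a summed level of 1043 to 1527 CPM against 2192 to 2690 CPM. Of the general neuronal markers, 2 of 5 were called lower, and of the GABAergic markers 1 of 3 was called higher, against 3 of 5 lower and 3 of 3 higher in the paired fit. Markers of the oligodendrocyte lineage had a mean summed level of 244.5 CPM in LP TTX/NMDA and 141.9 CPM in LP TTX. For endothelial or fibroblast markers, these means were 97.0 and 66.3 CPM. The ranges of both sums overlapped between the conditions. In the SP active effect, 0 of 6 astrocyte markers were called (1 higher in the paired fit), 3 of 4 glutamatergic and 1 of 5 neuronal markers were called lower, and 2 of 3 GABAergic markers were called higher (3 in the paired fit). The part of these shifts in the values of the receptors was not tested. In whole cultures, fewer cells of a type and less RNA per cell cannot be told apart.

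The total effect compares TTX/NMDA with Bic that ran on alone. In the SP, Grm5 was called, at 4.30% of genes, with a log2 fold change of -0.33 (SE 0.07, edgeR adjusted p = 0.0026); it was lower in 4 of 5 preparations, and preparation 8 was 2.47% higher. The paired fit called 2, at 27.3% of genes, adding Grm7 at -0.19 (SE 0.06, adjusted p = 0.031), against -0.17 (SE 0.08, adjusted p = 0.28) in the unpaired fit, which called it without preparation 8 (-0.27). In the LP, Grm5, Grm7 and Grm4 were called, at 22.8% of genes, with log2 fold changes of -0.63 (SE 0.08, adjusted p = 3.4e-07), -0.36 (SE 0.09, adjusted p = 0.0020) and -0.29 (SE 0.08, adjusted p = 0.0049). Over the 13601 genes with at least 1 CPM before TMM scaling, the unpaired fit called 45.3%. In this comparison too, 6 of 6 astrocyte markers were called higher (0.72 to 1.03) and 4 of 4 glutamatergic markers lower (-1.22 to -0.45), and their part in the values of the receptors was not tested.

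Grm4 (ENSMUSG00000063239; GRCm38, chr17:27422387-27521403, minus strand) encodes a presynaptic receptor best known from cerebellar granule cells. Its 2 h Bic libraries held 31.6, 32.2, 35.6, 30.7 and 30.9 CPM and its LP TTX/NMDA libraries 26.5, 27.6, 28, 26.9 and 24.7 CPM. The ranges did not overlap and the level fell in 5 of 5 preparations and decreased by 16.9% ± 3.81 (SD, n = 5). In the LP total effect the call was lost without preparation 6, which held the highest 2 h Bic value (edgeR adjusted p = 0.0505). The LP TTX libraries, from 24.7 to 31.6 CPM, overlapped both. For the LP total effect, the paired fit called 4 receptors, at 56.6% of genes, adding Grm3 at 0.31 (SE 0.09, adjusted p = 0.011), against 0.29 (SE 0.12, adjusted p = 0.075) in the unpaired fit, which called it without preparation 3 (0.38) or without preparation 8 (0.35). The passive, active and total effects share libraries, so their values are given side by side and not as independent results.

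**Figure D4:**
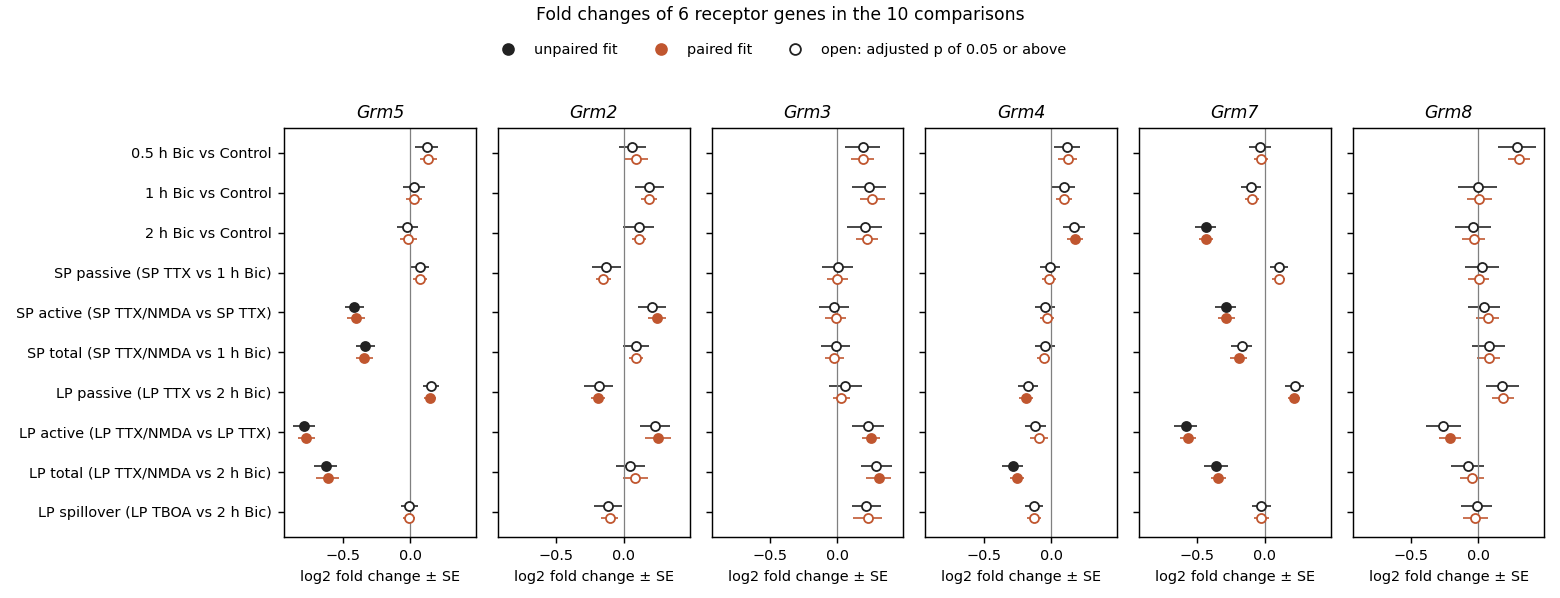
Log2 fold change of 6 receptors in each of the 10 comparisons, from the unpaired (black) and paired (orange) fits, with bars of 1 SE; filled points are called at an adjusted p under 0.05. In the unpaired fit, Grm5 is at -0.41 in the SP and -0.78 in the LP active effect and Grm7 at -0.29 and -0.59, and no receptor is called in spillover.

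The difference between the LP and SP active effects was tested as an interaction over the 20 libraries. The unpaired fit called no receptor, at 2.57% of genes. At an unadjusted p under 0.05 it held 2 (Grm5 and Grm7), and DESeq2 called 1, Grm5. The paired fit called 3, at 25% of genes: Grm5, Grm7 and Grm8, each with a more negative value in the LP. For Grm5 the difference was -0.37 (SE 0.10, adjusted p = 0.012) in the paired and -0.36 (SE 0.11, adjusted p = 0.076) in the unpaired fit. For Grm7 it was -0.29 (SE 0.09, adjusted p = 0.021) and -0.28 (SE 0.13, adjusted p = 0.30), and for Grm8 -0.30 (SE 0.11, adjusted p = 0.043) and -0.29 (SE 0.18, adjusted p = 0.50).

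Glutamate spillover compares TBOA, which leaves released glutamate outside synapses for longer, with 2 h Bic. No receptor was called in either fit, at 0.602% of genes (2.67% in the paired fit). None had an unadjusted p under 0.05 in the unpaired fit and 1, Grm4, did in the paired fit, and DESeq2 called none. Grm5 held 438, 425, 357, 368 and 381 CPM with TBOA, a log2 fold change of -0.00 (SE 0.06, edgeR adjusted p = 0.98). Grm7 held 52.7, 46.4, 45.2, 48.2 and 56.6 CPM, a log2 fold change of -0.03 (SE 0.07, adjusted p = 0.93). The ranges of both genes overlapped those of 2 h Bic. Grm4 was lower than in 2 h Bic in every TBOA library, 27.6 to 30.0 CPM against 30.7 to 35.6 CPM, with a change of -9.05% ± 7.56 within preparations (SD, n = 5), and its log2 fold change of -0.13 (SE 0.07) was not called (adjusted p = 0.65). The other values in spillover were -0.12 (SE 0.10) for Grm2, 0.21 (SE 0.11) for Grm3 and -0.01 (SE 0.11) for Grm8. Without preparation 8, whose TBOA library held the highest Grm2 level of that condition (44.7 CPM), that of Grm2 was also -0.12.

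For each detected receptor, the 3 genes with the most similar levels over the 45 libraries were found by Pearson's r of log2(CPM + 1) after removal of preparation means, among 13592 expressed genes. These libraries share preparations and conditions, so the values are descriptions. Grm5 was most like Ncam2 (0.99), Ppm1e (0.98) and Slc36a4 (0.98). Grm7 was most like Zbtb18, Adgrb3 and Tmem121b (0.95 each). Grm4 was closest to Mgat5b (0.88), Zmiz2 (0.86) and Map3k10 (0.85), and Grm3 to Myo10 (0.81), Plpp3 (0.80) and Smo (0.80). The likeness was lower for Grm2, whose nearest genes were H2afy2 (0.71), Grip2 (0.70) and Tpra1 (0.69), and for Grm8, with Mettl16 (0.61), Slc2a13 (0.60) and Acsl6 (0.60). These nearest genes depended on the removal of preparation means. With the means kept, Adgrb3 (0.94) was nearest to Grm7 and Slc36a4 (0.96) to Grm5. Zbtb18 fell to rank 37 for Grm7 (0.85) and Ncam2 to rank 7 for Grm5 (0.95). The value of r fell to 0.19 for Grm2 with Grip2 and to 0.15 for Grm8 with Slc2a13. Between receptors, with the means removed, r was 0.76 for Grm5 and Grm7, -0.59 for Grm3 and Grm7 and -0.48 for Grm2 and Grm5.

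The 34 genes of a list of signalling and scaffold partners of these receptors (G protein subunits, phospholipase C, protein kinase C, adenylyl cyclases, Homer proteins and other binding partners) were read in the same fits. The list, too, was chosen with earlier results of these data known. After 2 h Bic, 3 partners were called higher and 1 lower, where 4.24% of all tested genes were called higher and 4.78% lower. In the paired fit, 8 were called higher and 1 lower, at 14.4% and 15% of genes. The scaffold gene Homer1, whose short activity-induced form uncouples mGlu5 from its partners, had a log2 fold change of 2.57 (SE 0.09, edgeR adjusted p = 1.0e-22), Grasp, which encodes the scaffold tamalin, 1.85 (SE 0.11, adjusted p = 3.1e-15) and Elfn1, a postsynaptic adhesion protein that binds mGlu7 across the synapse, 0.45 (SE 0.10, adjusted p = 0.0018). The ubiquitin ligase gene Siah1a, whose product binds group I receptors, was at -0.55 (SE 0.09, adjusted p = 2.2e-05). Gene counts do not separate the short and long forms of Homer1. In the LP passive effect, 3.03% of all tested genes were called higher and 1.62% lower. Of the partners, 2 were called higher, Homer1 (0.35, adjusted p = 0.0016) and Siah1a (0.26, adjusted p = 0.038), and 1 lower, Dagla, the diacylglycerol lipase of endocannabinoid synthesis (-0.26, adjusted p = 0.018). In the paired fit, 4 were called higher and 13 lower, at 15.7% and 16.2% of genes, so that the larger number was then on the lower side.

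In the LP active effect, 21 of the 34 partners were called lower and 4 higher, with a median log2 fold change of -0.35, against 0.11 over all tested genes, of which 11.8% were called lower and 11.6% higher. The median over the 13601 genes with at least 1 CPM before TMM scaling was -0.01, and of the expressed genes with an annotated span 26.9% were called lower. With the preparation as a block, 23 partners were called lower and 6 higher, at 28.5% and 33.6% of genes. In the SP active effect, 12 were called lower and 1 higher, at 3.32% and 0.956% of all tested genes, and the paired fit called 15 lower and 3 higher, at 10.3% and 5.93%. The lower genes with the smallest adjusted p-values in the LP were Homer1 (-2.01, adjusted p = 4.2e-14), the adenylyl cyclase gene Adcy9 (-1.25, adjusted p = 1.5e-12), Grasp (-0.97, adjusted p = 2.0e-09) and the protein kinase C gene Prkca (-0.68, adjusted p = 1.1e-08). By role, 3 of 3 protein kinase C genes, 2 of 2 Gq genes and 4 of 7 adenylyl cyclase genes were called lower, as were 3 of 4 Gi/o genes, the fourth, Gnai2, being higher (0.41, adjusted p = 0.0041). The other higher genes were Itpr2, an inositol trisphosphate receptor (0.99, adjusted p = 7.7e-06), Plcb3, a phospholipase C (0.75, adjusted p = 0.00053), and Pick1, a scaffold that binds mGlu7 (0.37, adjusted p = 0.00074). With TBOA, 2 partners were called, Homer1 (-0.55, adjusted p = 2.7e-06) and Grasp (-0.58, adjusted p = 0.00056), both lower. Of all tested genes, 0.549% were called lower and 0.0536% higher. The paired fit also called 2 partners lower, at 2.23% of genes.

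**Figure D5:**
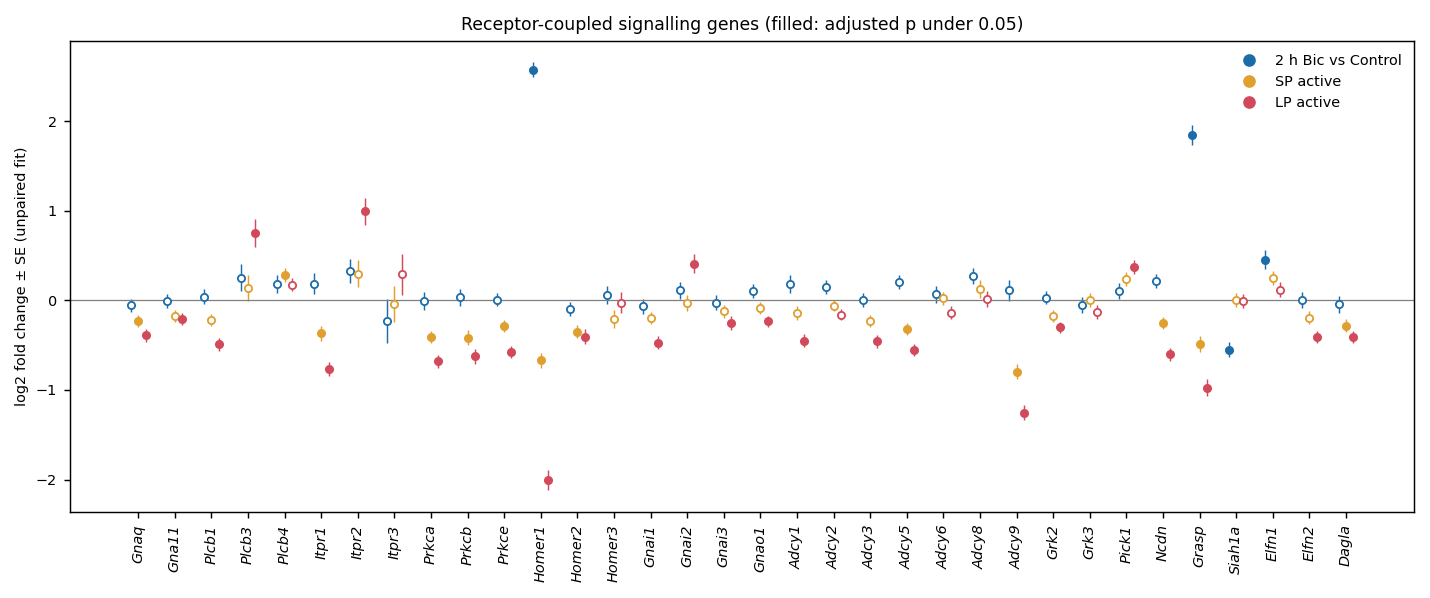
Log2 fold change of the 34 signalling and scaffold partners, grouped by role, after 2 h Bic (blue) and in the SP (yellow) and LP (red) active effects, from the unpaired fit with bars of 1 SE; filled points are called at an adjusted p under 0.05. In the LP active effect, 21 of 34 are called lower and 4 higher, with Homer1 at -2.01 the lowest.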

How the data were processed

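RNA from 45 hippocampal cultures was sequenced from poly-A, strand-specific libraries (single-end, 75 cycles). The authors aligned reads with STAR (2.5.4b) to GRCm38, with a limit on intron length that can drop reads joining exons across the longest introns of genes such as Grm7, and counted them with featureCounts (1.6.5; sense strand, no multi-mapping reads); the submitters' notes also name bcl2fastq (2.20.0.422). The deposited values are raw counts per gene. From these, CPM with TMM factors and edgeR (4.0.16; R 4.3.3) quasi-likelihood tests were computed, adjusted over all tested genes. The members and lists were chosen with earlier results of these data known. Named were the receptors, up to 4 called partner genes per direction with the smallest adjusted p in 4 comparisons, the 3 genes most like each receptor, and Fos, Npas4 and Homer1.

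Replicate numbers are the labelled culture preparations and so pair the samples: deviations from the condition means correlated at a mean r of 0.454 (-0.367 to 0.801) between libraries of the same preparation and -0.112 between others. The fits were also run on counts simulated without a preparation effect. Because the real libraries share preparations, that run cannot decide between the paired and unpaired fits. Alternatives were RLE size factors, filterByExpr, DESeq2 (1.42.0), the replicate block, all 45 libraries in one fit and leaving out each replicate. The paired fit (block with filterByExpr) was preferred to the block over all genes after earlier results of these data were known. Positions and exon lengths come from GENCODE M21 (GRCm38), and the authors' annotation was Ensembl 94.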

Additional observations from a re-analysis of the deposited data

Results flagged for a closer look

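In a test of each receptor in each condition for a library far from the others (Dixon's test, 54 groups of 5 libraries), 1 library stood apart. Grm2 in LP TBOA was at 44.7 CPM in preparation 8, against 30.4 to 34 CPM in the other 4 preparations, a gap of 0.746 of the range against a critical value of 0.71. Chance alone would give about 1 in 20 groups.

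In the paired fit, the active effect differed between the LP and the SP for 3 receptors, at 25% of genes. Each had a lower value in the LP. The differences on the log2 scale were -0.37 for Grm5 (edgeR adjusted p = 0.012), -0.29 for Grm7 (adjusted p = 0.021) and -0.30 for Grm8 (adjusted p = 0.043). The unpaired edgeR fit called none of the 3, and DESeq2 without the block called Grm5.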

How the results depend on the processing

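The calls of Grm5 in the SP and LP active and total effects, and of Grm7 after 2 h Bic and in the LP active and total effects, held in 12 of 12 alternatives. Among the recomputed log2 fold changes of single receptors, 714 kept their direction and side of the threshold, 46 became called in the same direction (mostly in the block fits), 4 lost their call and 28 turned their sign, none of the last being called.

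With the replicate block over all genes, the number of receptors called was 1 after 1 h Bic, 2 in the SP total, 4 in the LP passive, 5 in the LP active, 1 in the spillover effect and 2 in the difference of the active effects. The shares of all tested genes called there were 3.95%, 13.9%, 14.9%, 31.3%, 3.34% and 11.5%, in that order. With the replicate block and filterByExpr, the number of receptors was 2 after 2 h Bic, 2 in the SP total, 4 in the LP passive, 5 in the LP active effect and 3 in the difference. All tested genes were called there at 29.3%, 27.3%, 32%, 62.1% and 25%. With all 45 libraries and the block, 2, 2, 2, 5 and 2 receptors were called in the same order. The shares of genes called were 33.8%, 22.3%, 22.5%, 61.3% and 23.4%. The filterByExpr filter alone gave 1 receptor in the SP active effect (8.97% of genes), where the call of Grm7 was lost. DESeq2 gave 1 each in the LP passive effect (Grm7, at 18.3% of genes) and the difference (Grm5, at 10.6%). Leaving out 1 replicate gave 1 to 3 receptors in the SP active effect, 1 to 2 in the SP total (2 without preparation 8), 2 to 4 in the LP active (4 without preparation 8) and 2 to 4 in the LP total effect. The lowest and highest shares of genes called were 2.91% and 5.89%, 2.6% and 6.76%, 19.3% and 24.4%, and 18.5% and 24.8%, in that order. The cause of the changed receptor counts was not tested.

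The sign of uncalled values near 0 turned for Grm8 after 1 h Bic (0.0035, 0.0070 and 0.0098 in the 3 block fits), for Grm3 in the SP passive effect (-0.0014 with filterByExpr, -0.0011 and -0.0102 in the block fits on filtered genes) and for Grm8 in spillover (0.0160 with all libraries and the block). Without 1 replicate, log2 fold changes after 1 h Bic ranged from -0.0374 to 0.0826 for Grm5 and from -0.0842 to 0.0349 for Grm8, and after 2 h from -0.0818 to 0.0303 for Grm5 and from -0.0917 to 0.0251 for Grm8. They ranged in the SP passive effect from -0.0853 to 0.0650 for Grm3, from -0.0297 to 0.0182 for Grm4 and from -0.0051 to 0.0597 for Grm8, and in the SP active effect from -0.0719 to 0.0700 for Grm3 and from -0.0832 to 0.0011 for Grm4. The range was -0.0801 to 0.0572 for Grm3 in the SP total effect. In spillover it was -0.0317 to 0.0183 for Grm5, -0.0611 to 0.0319 for Grm7 and -0.0660 to 0.0589 for Grm8, and in the difference -0.0640 to 0.1219 for Grm2. Depth limits Grm6, and 5 libraries a condition limit every test.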

Other observations

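Grm5, Grm7 and Grm8 are annotated over more than 500 kb, and a description of all expressed genes by annotated span, chosen after their values were seen, is given without a test. In the LP active effect, 14.9% of genes spanning up to 20 kb were called lower by the unpaired fit, 31.5% of those of 20 to 100 kb, 45.2% of those of 100 to 500 kb and 63.2% of the 209 genes over 500 kb, whose median log2 fold change was -0.37. In the SP active effect, these shares were 3.92%, 6.99%, 18.6% and 35.4%. After 2 h Bic, when Grm7 was lower, they were 11.1%, 12.1%, 4.32% and 2.87%, the lowest share being that of the longest genes. Grm8, of similar span, had log2 fold changes of -0.26 in the LP active effect and 0.28 after 0.5 h Bic. The unpaired fit called neither, and the paired fit called Grm8 in the LP active effect (-0.21, edgeR adjusted p = 0.028).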
